A study of Mus musculus with 4 samples.

Results

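The ATF4 amino acid stress response was followed in the RNA of activated mouse CD8+ T cells through 10 genes. They were chosen by name, with earlier results of these data known, and make up 10 of the 54532 genes in the count table. The genes are Atf4, Ddit3, Trib3, Chac1, Sesn2, Asns, Psat1, Phgdh, Shmt2 and Slc7a5. Naive splenic CD8+ T cells of C57BL/6 mice were taken with magnetic beads and cultured for 48 h on antibodies to CD3 and CD28, which stand in for antigen, either with IFNα at 2000 U/ml (2 samples) or without it (2 control samples). IFNα belongs to the type I interferons and turns on antiviral genes through the IFNAR receptor. Both groups thus share the stimulation of the T cell receptor and CD28, and differ in the cytokine. Neither the labels nor the methods say whether samples of a group came from separate animals or cultures, so the p-values cover the spread among these 4 samples alone, and that spread may be technical.

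Cells that lack amino acids, or are otherwise stressed, activate kinases that phosphorylate the translation factor eIF2α. Most protein synthesis then slows, while the Atf4 mRNA is translated better because of short reading frames ahead of its coding sequence. ATF4 protein binds DNA with partners of the C/EBP family and switches on genes that make, import and charge amino acids, along with genes that restrain growth or promote cell death. T cells also draw on this program when they start to divide, since growth needs amino acids. ATF4 activity depends much on translation, so the level of Atf4 mRNA does not measure it.

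With IFNα, none of the 10 genes passed the test across all genes, and the differences varied from gene to gene. Chac1, the rarest, had the largest difference, with 50 counts in the IFNα samples together and 5 in the controls, at an adjusted p of 0.0763 in edgeR's quasi-likelihood test. Slc7a5, Asns, Sesn2, Trib3 and Ddit3 were 1.19-fold to 1.43-fold higher with IFNα by the fit, and for each of them both IFNα samples lay above both controls. Such a separation was present in 23.1% of all genes tested. The abundant Atf4, Phgdh, Psat1 and Shmt2 had log2 fold changes between -0.18 and 0.10. Over the 10 genes the median log2 fold change was 0.34, against -0.01 over the 14417 genes tested. Without Chac1, which reached the test only through its IFNα counts, the median of the other 9 was 0.25.

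The libraries held 16096121 to 17676062 counts. The label of the treatment matched the data, since Rsad2, an antiviral gene, had 131 and 136 CPM in the IFNα samples, against 0.405 and 0.228 CPM in the controls. CPM are counts scaled to a common library size after TMM, a method that evens out library composition. The defining markers of CD8+ T cells were present in every sample, with Cd8a at 1058 and 1078 CPM with IFNα and at 1051 and 968 CPM in the controls, and Cd4 stayed at 0.798 CPM or less. Summed over 14 markers of CD4 T, B, myeloid, NK and erythroid cells, the level was 20.1 and 19.7 CPM with IFNα, against 38.7 and 35.0 CPM in the controls, mostly from Lyz2 and Cd79b. The myeloid marker Lyz2 was the only one that passed, and fell to 4.96 and 6.10 CPM with IFNα, against 16.5 and 13.96 CPM in the controls (log2 fold change -1.46, adjusted p = 0.0297). The B cell marker Cd79b was also lower in both IFNα samples, with 8.03 and 7.61 CPM against 16.2 and 12.4 CPM in the controls. Its log2 fold change was -0.87 (adjusted p = 0.156 in edgeR's quasi-likelihood test). The myeloid markers Itgam and Cd14, too rare to be tested, were lower in both IFNα samples as well, at 12 counts or fewer per sample. The B cell marker Cd79a had 4.71 and 4.36 CPM with IFNα, against 3.41 and 5.36 CPM in the controls, so that its groups overlapped, as did those of the myeloid marker Csf1r. The part of these cells in the results was not tested. In bulk RNA, fewer cells of a type and less RNA per cell cannot be told apart.

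The controls differed from each other more than the IFNα samples did, and this bears on every value below. Among 10105 genes with a mean of at least 5 CPM, the median size of the log2 difference between replicates was 0.08 in the IFNα samples and 0.27 in the controls. The difference followed gene length, so that control replicate 2 against control replicate 1 had a median log2 ratio of -0.37 among genes in the shortest of 5 length groups and 0.38 in the longest. The fold change with IFNα followed length as well. From the shortest group to the longest, its median log2 value was -0.19, -0.09, -0.02, 0.06 and 0.17. The members are 1637 to 4254 bases long, and belong to the 3 shorter groups, and 8 of 10 were lower in control replicate 2 than in control replicate 1. For 7 of the 10 the gap between the controls was larger than the gap between the IFNα samples. With a control left out, a pass was common among all genes. At an adjusted p under 0.05, 7.5% of the genes tested passed as higher and 6.25% as lower when control replicate 1 was omitted, and 22.8% and 21.6% when control replicate 2 was.

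The promoters of Asns and Chac1 are shown because they hold a match to the core of the element that ATF4 and C/EBP proteins bind, and because both genes were higher in both IFNα samples. The letters searched were TGATGNAA on both strands, with no other motif. The windows ran from 250 bases before to 50 bases after the RefSeq start on GRCm38.p6, and 9 of the 10 members had one. A match was found for Asns, Chac1 and Trib3, 3 of these 9, while 3.97% of all 32851 windows held one. Capitals mark the match, which lies on the opposite strand in Chac1 and Trib3. The Asns sequence is chr6:7693210-7693459 (minus strand), the Chac1 sequence is chr2:119350992-119351241 (plus strand), and both end at the base before the RefSeq start.
Asns: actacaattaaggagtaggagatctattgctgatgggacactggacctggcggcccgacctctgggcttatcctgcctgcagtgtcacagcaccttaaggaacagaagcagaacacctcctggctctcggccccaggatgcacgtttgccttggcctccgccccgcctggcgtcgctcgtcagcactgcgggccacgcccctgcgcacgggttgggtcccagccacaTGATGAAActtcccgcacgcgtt
Chac1: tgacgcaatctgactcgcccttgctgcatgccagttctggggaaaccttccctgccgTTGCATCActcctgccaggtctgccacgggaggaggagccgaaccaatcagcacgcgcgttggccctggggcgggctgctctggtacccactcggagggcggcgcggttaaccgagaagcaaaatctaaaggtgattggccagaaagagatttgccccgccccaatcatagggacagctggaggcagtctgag
Trib3: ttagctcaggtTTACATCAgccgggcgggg

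The Asns match lies 23 to 16 bases before the RefSeq start, and the Chac1 match 193 to 186 bases before it. The Trib3 stretch, chr2:152344028-152344057 (minus strand), holds its match 15 to 22 bases after the RefSeq start. No match was found in the windows of Atf4, Ddit3, Sesn2, Phgdh, Psat1 and Shmt2, which says only that these letters are not there. A match is a description of the sequence and does not show binding in these cells.

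**Figure D1:**
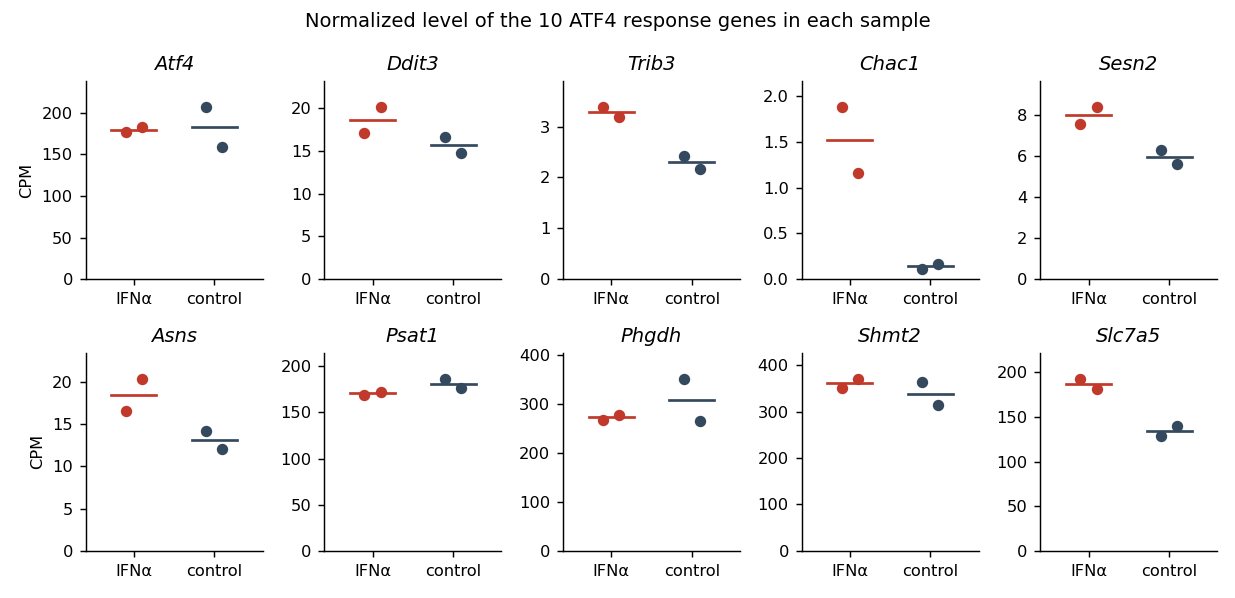
Normalized level (CPM, linear axes that start at 0) of the 10 genes in the 2 IFNα samples (red, left) and the 2 control samples (dark, right), with points for samples and bars for means. For Chac1, Trib3, Sesn2, Asns, Slc7a5 and Ddit3 both IFNα points lie above both control points, while the controls span the IFNα samples for Atf4.

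Atf4 (ENSMUSG00000042406, chr15:80255184-80257541, plus strand, GRCm38), the transcription factor itself, differed between the groups by less than the controls differed. It had 177 and 183 CPM in the IFNα samples, against 207 and 158 CPM in the controls. Both IFNα values lay between those of the controls. The log2 fold change was -0.02 (SE 0.16, adjusted p = 0.965), with a 95% interval of -0.43 to 0.38. The interval gives the changes that remain compatible with these 4 samples before adjustment over all genes, and is not a limit of detection.

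Ddit3 (ENSMUSG00000025408, chr10:127290774-127296288, plus strand) encodes CHOP, a transcription factor that ATF4 induces and that promotes cell death under lasting stress. It had 17.1 and 20.1 CPM with IFNα, against 16.6 and 14.8 CPM in the controls. The groups did not overlap, but the nearest samples were close, and the log2 fold change was 0.25 (SE 0.16, adjusted p = 0.599). The table holds a second entry named Ddit3, ENSMUSG00000116429, at 0 counts in all 4 samples. The 3′ end of Ddit3 overlaps the end of Mars on the opposite strand, a gene with 2269 to 2548 counts per sample, and as the strand setting of the counting is unknown, reads from the overlap may not be told apart.

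Trib3 (ENSMUSG00000032715, chr2:152337422-152344032, minus strand), a pseudokinase that dampens ATF4 and CHOP activity, was rare. It had 54 and 55 counts in the IFNα samples, against 42 and 38 in the controls, or 3.39 and 3.19 CPM against 2.43 and 2.16 CPM. Both IFNα samples were higher than both controls. The log2 fold change was 0.52 (SE 0.27, adjusted p = 0.546), with a 95% interval of -0.15 to 1.19.

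Chac1 (ENSMUSG00000027313, chr2:119351229-119354381, plus strand) breaks down glutathione and is a target of ATF4 and CHOP. It had 30 and 20 counts in the IFNα samples, against 2 and 3 counts in the controls, or 1.88 and 1.16 CPM against 0.116 and 0.171 CPM. Both IFNα samples stood far above both controls, and they also differed from each other more than any other member did within a group. The ratio of the summed counts per library was 10.5, with an exact 95% binomial interval of 4.22 to 33.8 that covers counting error only. The fitted log2 fold change was 3.34 (SE 0.68, unadjusted p = 0.00158, adjusted p = 0.0763), the 60th highest of the 14417 genes tested. Chac1 passed the filter on low counts only through the IFNα samples, so that it had to differ to be tested at all, whereas the other 9 members had at least 10 counts in every sample. It passed under 8 of the 11 other settings, among them DESeq2 (adjusted p = 0.045), the edgeR exact test (adjusted p = 0.000144) and the omission of either control, and its adjusted p ranged from 4.52e-05 to 0.438. The highest came without IFNα replicate 1, the library with 30 counts, where the log2 fold change was 2.96.

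Sesn2 (ENSMUSG00000028893, chr4:132492032-132510501, minus strand) encodes sestrin 2, which restrains mTORC1 when leucine is low. It had 7.59 and 8.42 CPM with IFNα, against 6.30 and 5.64 CPM in the controls. The groups did not overlap, at a log2 fold change of 0.42 (SE 0.19, adjusted p = 0.495). The related sestrin gene Sesn1, which p53 is known to induce, had 79.6 and 81.5 CPM with IFNα, against 118 and 117 CPM in the controls. Here the IFNα samples were the lower ones, and the log2 fold change was -0.54 (SE 0.12, unadjusted p = 0.00369, adjusted p = 0.129). Sesn1 passed as lower by the edgeR exact test (adjusted p = 0.0202) and with an offset for gene length (adjusted p = 0.0351). It passed in 5 of the 11 other settings, with adjusted p-values of 5.54e-12 to 0.9998.

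Asns (ENSMUSG00000029752, chr6:7675169-7693254, minus strand), which makes asparagine from aspartate, had 16.5 and 20.4 CPM in the IFNα samples, against 14.2 and 12.1 CPM in the controls. Both IFNα samples exceeded both controls, with 263 and 351 counts against 246 and 212. The log2 fold change was 0.49 (SE 0.18, unadjusted p = 0.0363, adjusted p = 0.403). Leaving out either control alone gave an adjusted p under the threshold, 0.000277 without control replicate 1 and 0.0167 without control replicate 2, in fits that take the spread from the IFNα samples. Over the 11 other settings the adjusted p of Asns ranged from 0.000277 to 0.9998.

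The enzymes of serine and glycine synthesis were among the most abundant members, and for none of them did both IFNα samples lie above both controls. Phgdh (ENSMUSG00000053398, chr3:98313170-98339990, minus strand), which starts serine synthesis from a product of glycolysis, had 268 and 278 CPM with IFNα, against 352 and 266 CPM in the controls. Its groups overlapped because control replicate 2 was the lowest of the 4 samples, and the log2 fold change was -0.18 (SE 0.17, adjusted p = 0.693). The direction turned with the control that was kept, with 0.04 without control replicate 1 and -0.37 (adjusted p = 1.62e-06, the lowest of the 11 other settings, of which the rest did not pass) without control replicate 2.

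Psat1 (ENSMUSG00000024640, chr19:15904678-15947337, minus strand), the aminotransferase of the next step, had 169 and 172 CPM in the IFNα samples, against 187 and 176 CPM in the controls. It was the only member whose IFNα samples both lay below both controls, and the log2 fold change was small, -0.09 (SE 0.12, adjusted p = 0.776, 95% interval -0.38 to 0.21). Shmt2 (ENSMUSG00000025403, chr10:127517123-127522444, minus strand), the mitochondrial enzyme that splits serine into glycine and a one-carbon unit, had 351 and 371 CPM with IFNα, against 363 and 313 CPM in the controls. The groups overlapped, at a log2 fold change of 0.10 (SE 0.14, adjusted p = 0.797).

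Slc7a5 (ENSMUSG00000040010, chr8:121881150-121907694, minus strand) encodes LAT1, the main importer of leucine and other large neutral amino acids in activated T cells. It had 193 and 181 CPM with IFNα, against 129 and 140 CPM in the controls, which is 3073 and 3114 counts against 2229 and 2457. The gap between the groups was larger than the gap within either. The log2 fold change was 0.48 (SE 0.12), or 1.39-fold, with a 95% interval of 0.17 to 0.78. The unadjusted p of 0.00933 was the second smallest of the members after Chac1, and the adjusted p was 0.219, with 3.01e-12 to 0.9998 over the 11 other settings, and passed only on the omission of either control. Slc7a5 stood apart from the other abundant members in that control replicate 2 was its higher control.

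**Figure D2:**
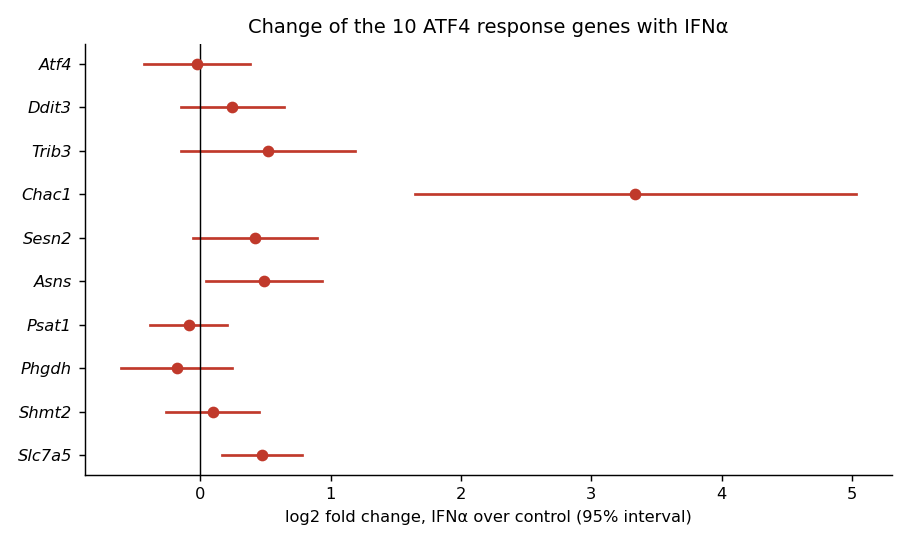
Fitted log2 fold change of the 10 genes, IFNα over control (points), with 95% intervals from the moderated spread (lines) on 2 samples per group. The intervals of Chac1 (1.65 to 5.03), Slc7a5 (0.17 to 0.78) and Asns (0.04 to 0.93) lie above 0 before adjustment over all genes, and none of the 10 passed after it.

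Per length of transcript, the members spanned a wide range. In RPKM, that is CPM per kilobase of the gene's exons, the mean over all 4 samples was 117 for Phgdh, 112 for Shmt2, 76.8 for Atf4, 43.3 for Slc7a5 and 41.4 for Psat1. It was 10.02 for Ddit3, 5.77 for Asns, 2.01 for Sesn2, 1.31 for Trib3 and 0.509 for Chac1. Neighbours in this order whose ranges over the 4 samples overlapped were Phgdh with Shmt2, Slc7a5 with Psat1, and Trib3 with Chac1. Asns was thus far rarer than the enzymes of serine synthesis in both groups, at 6.74 ± 1.003 RPKM with IFNα and 4.81 ± 0.553 RPKM in the controls (SD, n = 2 in each group).

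In the 5 members with the lowest RPKM, and in 1 of the 5 with the highest, Slc7a5, both IFNα samples were above both controls, a split noticed after the values were seen. These 6 of 10 compare with 23.1% of all genes tested, and the 1 of 10 with both below compares with 23.4%. Without Chac1, both IFNα samples were above both controls in 5 of 9. The share of all genes with both IFNα samples above both controls depended on the level. Over 5 equal groups of genes by mean CPM, it was 20.2% in the lowest group, which holds Chac1, 16.6% in the next, with Sesn2 and Trib3, 18.5% in the middle one, with Ddit3 and Asns, and 34.7% in the highest, with the other 5 members. At an unadjusted p under 0.05, 3 members were higher (Chac1, Slc7a5 and Asns) and 0 lower, where 5.72% and 5.55% of all genes were, and without Chac1 the numbers were 2 of 9 and 0. At an adjusted p under 0.05, 0 members were higher and 0 lower by edgeR's quasi-likelihood test, against 1.43% and 0.222% of all genes. With a log2 fold change over 1 required as well, the members again numbered 0 and 0, and the shares of all genes were 1.28% and 0.139%. DESeq2, edgeR's exact test and its likelihood ratio test each called 1 member higher, Chac1, and 0 lower, where these tests called 2.29%, 2.94% and 2.98% of all genes higher and 0.56%, 1.55% and 1.62% lower.

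The rest of the pathway was read from 8 lists with 63 further genes, of which 59 were tested. Of these, 1 passed as higher by edgeR's quasi-likelihood test and 0 as lower, beside 1.43% and 0.222% of all genes tested. At an unadjusted p under 0.05 the numbers were 6 of 59 and 1 of 59, beside the 5.72% and 5.55% of all genes. One of the 6, Aldh1l2, passed the filter on low counts only through the IFNα samples, and over the other 58 genes the numbers were 5 and 1. The median log2 fold change was 0.08.

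The gene that rose was Eif2ak2, the kinase PKR, which senses double-stranded RNA, phosphorylates eIF2α and is itself known as an interferon-induced gene. It had 260 and 261 CPM in the IFNα samples, against 26.9 and 41.0 CPM in the controls. This was a log2 fold change of 2.94 (SE 0.21, adjusted p = 0.00337), and every IFNα value exceeded the higher control more than the controls differed. Eif2ak2 passed in each of the 11 other settings. The other eIF2α kinases, named after their values were seen, did not pass. Eif2ak4, the kinase GCN2 that senses uncharged tRNA, had 34.2 and 32.8 CPM with IFNα, against 24.9 and 33.3 CPM in the controls (log2 fold change 0.20, adjusted p = 0.67). Eif2ak3, the kinase PERK of the endoplasmic reticulum, had a log2 fold change of -0.17, and Eif2ak1, the heme-regulated kinase, of 0.09. Of the 8 genes around eIF2α, which include its phosphatase subunits, 1 rose, 0 fell and 7 did not pass.

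Among the DNA-binding partners and cofactors of ATF4, none of 4 tested genes passed. Atf3, a stress-induced repressor and partner of ATF4, had 25 and 31 counts in the IFNα samples, against 17 and 9 in the controls (log2 fold change 1.17, SE 0.46, adjusted p = 0.43). Atf5, which is translated in the same way as Atf4, had 6.65 and 7.32 CPM with IFNα, against 9.54 and 8.43 CPM in the controls (log2 fold change -0.36, adjusted p = 0.538). Atf3 and Atf5 differed in opposite directions, and both are low in these cells. The C/EBP genes of the list are added after their values were seen. Cebpg was more abundant, with 46.1 and 44.7 CPM with IFNα, against 46.8 and 44.7 CPM in the controls (log2 fold change -0.01). Cebpb had 8.53 and 6.68 CPM with IFNα, against 6.53 and 4.90 CPM in the controls (log2 fold change 0.41).

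The serine and one-carbon list, 6 genes beside the members, had a median log2 fold change of 0.01, and none passed. Psph, which completes serine synthesis, had 37.3 and 40.6 CPM with IFNα, against 52.1 and 38.6 CPM in the controls, and so overlapped like Phgdh (log2 fold change -0.22, adjusted p = 0.655). Aldh1l2, a mitochondrial folate enzyme, had 13 and 14 counts in the IFNα samples, against 3 and 6 in the controls (log2 fold change 1.63, SE 0.60, adjusted p = 0.379). Like Chac1, it reached the test only through its IFNα counts.

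In the list of other amino acid synthesis, 0 of 5 genes passed at a median log2 fold change of 0.70. Cth, which makes cysteine from cystathionine, had 22 and 26 counts in the IFNα samples, against 11 and 7 in the controls (log2 fold change 1.47, SE 0.46, unadjusted p = 0.0179, adjusted p = 0.299). Gpt2, the mitochondrial alanine aminotransferase, had 39 and 39 counts against 17 and 28 (log2 fold change 0.86, adjusted p = 0.471). Both IFNα samples exceeded both controls for these genes, at few counts.

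Of the amino acid transporters, 8 of 9 were tested, 0 passed and the median log2 fold change was 0.33. Slc7a3, a carrier of arginine and lysine, had 2.95 and 3.54 CPM with IFNα, against 1.68 and 1.77 CPM in the controls (log2 fold change 0.91, SE 0.29, unadjusted p = 0.0209, adjusted p = 0.319). Slc1a4, a carrier of alanine and serine, had 7.15 and 6.04 CPM against 2.37 and 4.61 CPM (log2 fold change 0.91, adjusted p = 0.428). Both had separate groups, and the controls of Slc1a4 lay far apart. Slc3a2, which encodes the CD98 heavy chain that LAT1 pairs with, had 143 and 148 CPM with IFNα, against 135 and 120 CPM in the controls (log2 fold change 0.19, adjusted p = 0.6). The arginine and lysine carrier Slc7a1 had 209 and 206 CPM against 122 and 180 CPM (log2 fold change 0.46, adjusted p = 0.481). Slc3a2 and Slc7a1 were picked after their values were seen.

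The cytosolic aminoacyl-tRNA synthetases, which load amino acids onto tRNA, had a median log2 fold change of 0.06. None of 20 passed, and 13 lay above 0 and 7 below. Vars, for valine, had 586 and 565 CPM with IFNα, against 485 and 452 CPM in the controls (log2 fold change 0.30, adjusted p = 0.51). Iars, for isoleucine, had 192 and 195 CPM against 141 and 177 CPM (log2 fold change 0.29, adjusted p = 0.548).

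The remaining lists had medians below 0. Of 4 brakes on mTORC1 and translation none passed, at a median log2 fold change of -0.11. Besides Sesn1, Ddit4, which encodes the mTORC1 inhibitor REDD1, had 43.9 and 42.0 CPM with IFNα, against 57.1 and 46.8 CPM in the controls (log2 fold change -0.27, adjusted p = 0.552). Of 4 tested genes among CHOP targets and stress outputs none passed, at a median of -0.16, with Ero1l, an oxidase of protein folding, at 0.39 (adjusted p = 0.458) and Bbc3, the death gene PUMA, at -0.31 (adjusted p = 0.5). The secreted stress factor Fgf21 had 0 counts in all 4 samples. The ER chaperones that ATF6 and XBP1 control, another branch of the stress response, had a median of -0.03 over 8 genes, none of which passed. Hspa5, the chaperone BiP, had 579 and 590 CPM with IFNα, against 498 and 410 CPM in the controls (log2 fold change 0.37, adjusted p = 0.476), and Herpud1, a degradation factor, 33.7 and 34.7 CPM against 45.7 and 40.7 CPM (log2 fold change -0.34, adjusted p = 0.428).

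**Figure D3:**
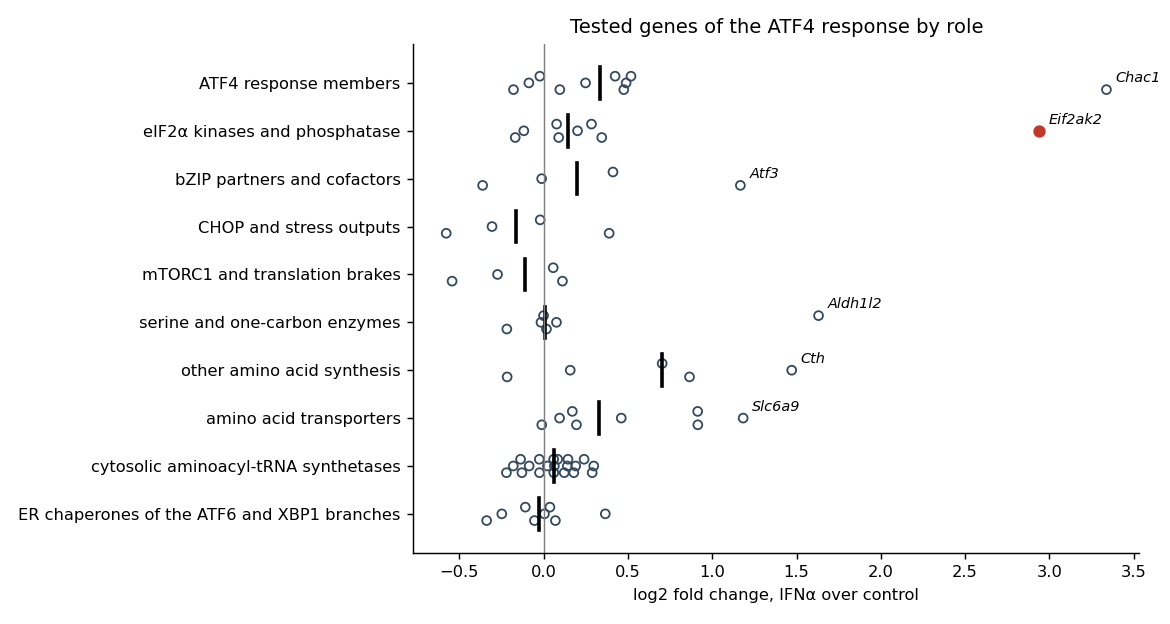
Log2 fold change, IFNα over control, of each tested gene in the 10 members and the lists by role (circles), with the median of each list (black bars). Eif2ak2 (2.94, filled) was the only gene with an adjusted p under 0.05, and Chac1 (3.34) lay furthest to the right without passing.

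Several of these values changed with the control that was left out. Without control replicate 1, 4 members passed as higher (Chac1, Slc7a5, Asns and Shmt2) and 0 as lower, and without control replicate 2 it was 3 (Chac1, Slc7a5 and Asns) and 2 (Atf4 and Phgdh). At the same threshold these fits called 7.5% and 22.8% of all genes higher and 6.25% and 21.6% lower, against 1.43% and 0.222% with all 4 samples, so the members' counts without control replicate 2 were near the share among all genes. Slc7a5, Asns, Sesn2, Trib3, Ddit3 and Chac1 stayed above 0 in each of the 11 other settings, and Psat1 stayed below 0. This adds nothing to the separation of the groups already given for these genes. Where the groups do not overlap, leaving out a sample can hardly turn the direction, and the other settings use the same counts. With an offset for gene length Atf4 had a log2 fold change of 0.13 in place of -0.02. The offset shifted every other member upward too, and none passed with it. Ddit3 had 0.42 in place of 0.25, Trib3 0.67 in place of 0.52 and Asns 0.60 in place of 0.49.

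**Figure D4:**
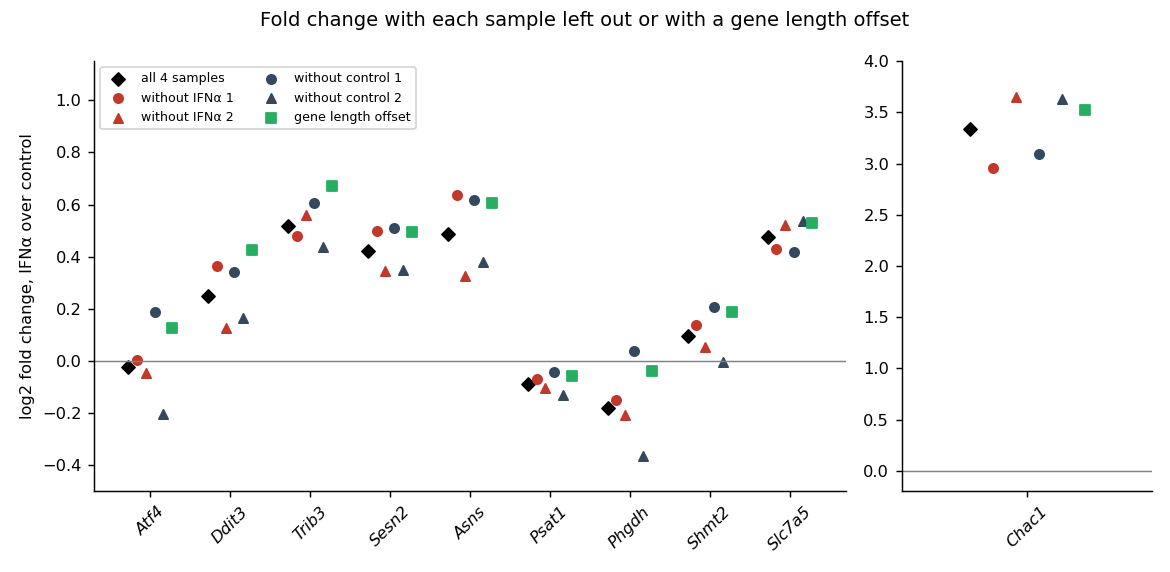
Log2 fold change of the members, IFNα over control, with all 4 samples (diamonds), with each IFNα sample (red) or control sample (dark) left out, and with a gene length offset (green squares), with Chac1 on its own axis. The points for Atf4, Phgdh and Shmt2 fall on both sides of 0, and those of Slc7a5 lie between 0.42 and 0.54.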

How the data were processed

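Raw read counts per gene were deposited by the authors for 4 samples. Libraries came from a NEBNext Ultra kit and were run on an Illumina HiSeq, and the authors mapped reads with Hisat2 v2.0.5. The submitters' processing notes name featureCounts of Subread, with no version or strand setting given in the sources used here. The notes name mm9, but 53499 of 54532 genes, and all members, have the same position and strand in GENCODE M21 of GRCm38, so positions are on GRCm38. Each single-sample file held the same counts as the table. Genes with close copies may share reads.

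Samples were grouped by the treatment in their labels. Genes were kept by filterByExpr (minimum 10 counts, total 15), normalized by TMM and tested in R 4.3.3 with edgeR 4.0.16 (glmQLFit robust, glmQLFTest, condition only, 2 residual degrees of freedom), with Benjamini-Hochberg adjustment over 14417 genes. Genes within lists were counted at an adjusted p under 0.05, and the study's fold threshold was not applied there. Errors are SDs over samples or standard errors from the moderated fit. Chac1 also has an exact binomial interval.

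The members, lists and tests were chosen with earlier results of these data known. Of each list the text names passing genes (up to 4), or the 2 with the smallest p, and others where said. The alternatives were RLE factors, no filter, DESeq2 1.42.0, edgeR's likelihood ratio and exact tests, a lowess gene length offset (span 0.3), a replicate block, leaving out each sample, and the fold threshold. The fit was tested on simulated counts. Promoters are from RefSeq (GRCm38.p6).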

Additional observations from a re-analysis of the deposited data

How the results depend on the processing

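The members called higher, 0 of 10 as tested, numbered 1 (Chac1) with no filter, DESeq2, the exact test, the likelihood ratio test and the replicate block, and 0 to 4 with a sample left out, while those called lower numbered 0 to 2 with a sample left out. Among the other pathway genes 1 was higher as tested and 1 to 17 with a sample left out, and 0 were lower as tested, 1 with the exact test, the likelihood ratio test or the gene length offset (Sesn1), and 0 to 13 with a sample left out. Over all genes, 185 higher and 20 lower became 298 and 94 with the likelihood ratio test, 295 and 87 with the exact test, 216 to 966 and 23 to 267 with a sample left out, 259 and 62 with no filter, 249 and 37 with DESeq2, 253 and 37 with the replicate block and 206 and 32 without the fold threshold. Except for the 206 and 32, these counts over all genes also required a log2 fold change over 1. The counts of members and other pathway genes did not, so they cannot be set against these counts over all genes. For fits with a control left out, the shares of all genes at the members' threshold are given in the Results. The log2 fold change of Atf4 was 0.13 with the length offset and -0.20 to 0.19 with a sample left out, that of Phgdh -0.37 to 0.0395, of Shmt2 -0.00545 to 0.21 and of Psph -0.42 to 0.0160. The causes were not tested. The replicate block gave Chac1 an adjusted p of 0.0366 and changed the call of no other member. Deviations of same-numbered samples correlated at -0.31. With 2 samples per group and replicate differences that followed gene length, this value cannot tell whether the numbers pair the samples. With a block of crossed pairs, a choice made after seeing the data, 1 member was higher. Of the other pathway genes 2 were higher and 1 lower, and of all genes 743 and 340. With the fold threshold as well, 337 and 91 of all genes were higher and lower. With a sample left out the lone sample is assumed to vary like the other group. Depth limits Chac1, Trib3, Aldh1l2, Cth, Gpt2, Slc7a3 and Atf3, whose controls held under 50 counts each, and counting intervals cover counting error only.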
